A study of Danio rerio with 20 samples.

Results

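A group of 71 transcribed loci was silent in the non-injured zebrafish heart and on after cryoinjury. They are the loci with a value under 2 in all 4 non-injured libraries and of at least 10 in all 4 libraries of at least 1 injured group, among 66128 loci in all (0.107%). Of the 11572 loci that were silent before injury, 0.614% were on at a later time point, although 7920 of them had at least 1 read in an injured library. The values are the reads of a locus scaled by one factor per library, called normalized reads from here, so that 1 read is worth between 0.682 and 1.26 depending on the library. Bulk RNA sequencing was performed on ventricular apexes of WT adult fish, male and female and 5 to 12 months old, with 4 libraries from non-injured hearts and 4 from each time point of 1.5, 3, 7 and 14 dpci (days post cryoinjury). Each library held 3 to 4 pooled apexes, all groups share the genotype, and no transgene or treatment is given for any of them. The loci were chosen by these measured values, in the non-injured and injured libraries alike. Their levels against the non-injured group are a description, from which no test result is read.

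Cryoinjury kills part of the ventricle by freezing. In the zebrafish heart the dead tissue is first cleared by infiltrating immune cells and bridged by a fibrin-rich clot. Activated epicardial, endocardial and fibroblast cells then lay down a transient matrix, and the surviving cardiomyocytes divide and replace the scar over the following weeks. In bulk tissue such as this, fewer cells of a type and less RNA per cell cannot be told apart, so that a silent locus may belong to cells that were absent or to resident cells. A locus here is a stretch of overlapping assembled transcripts, which the assembly software numbers in order (XLOC_ followed by a number). The gene names in the table are not paired with its rows, so that no locus is given a gene, a position or a function, and the apex tissue could not be checked against its markers.

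Between 19349169 and 32939803 reads were recovered in 19 libraries, and 7 dpci replicate 1 was left out of this step by choice. Along the first principal component of all loci (31.5% of the variance) the libraries fell into 2 sides. By the sign of their score, non-injured replicates 1 and 2 lay with all libraries of 7 and 14 dpci. Non-injured replicates 3 and 4 lay with all libraries of 1.5 and 3 dpci. The scores of the 4 non-injured libraries, 110, 44.8, -75.5 and -92.1, lay between those of the injured groups. Libraries of 7 and 14 dpci were at 118 to 166, and those of 1.5 and 3 dpci at -162 to -109. The labels name no batch for this split, which was found in the data. A locus of the group is silent on both sides, since the rule asks for all 4 non-injured libraries. The labels do not say whether the 4 libraries of a group came from separate surgeries or days, and p-values measure the spread between these libraries.

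Most of these loci were on early and at a single time point. How far the early loci outnumbered the late ones depended on the non-injured libraries used, as given below. At 1.5 dpci 35 of the 71 loci were on (all 4 libraries at 10 or over), at 3 dpci 35, at 7 dpci 7 and at 14 dpci 4. The first time point at which a locus was on was 1.5 dpci for 35 loci, 3 dpci for 28, 7 dpci for 6 and 14 dpci for 2. By the full pattern, 28 loci were on at 1.5 dpci alone, 27 at 3 dpci alone and 7 at both of these time points. A further 5 loci were on at 7 dpci alone and 2 at 14 dpci alone, 1 locus was on at 7 and 14 dpci (XLOC_006489), and 1 locus was on from 3 to 14 dpci (XLOC_036189). The number of loci on at all 4 time points was 0. With limma on log2(value + 1) and Benjamini-Hochberg adjustment over all 62594 loci tested, 12.8% of all loci were higher than in the non-injured group at 1.5 dpci, 12.9% at 3 dpci, 6.43% at 7 dpci and 5.88% at 14 dpci. Of the 71 loci, 57, 64, 27 and 18 were called at these time points, and nothing is read from these counts because the rule used the same contrast.

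**Figure D1:**
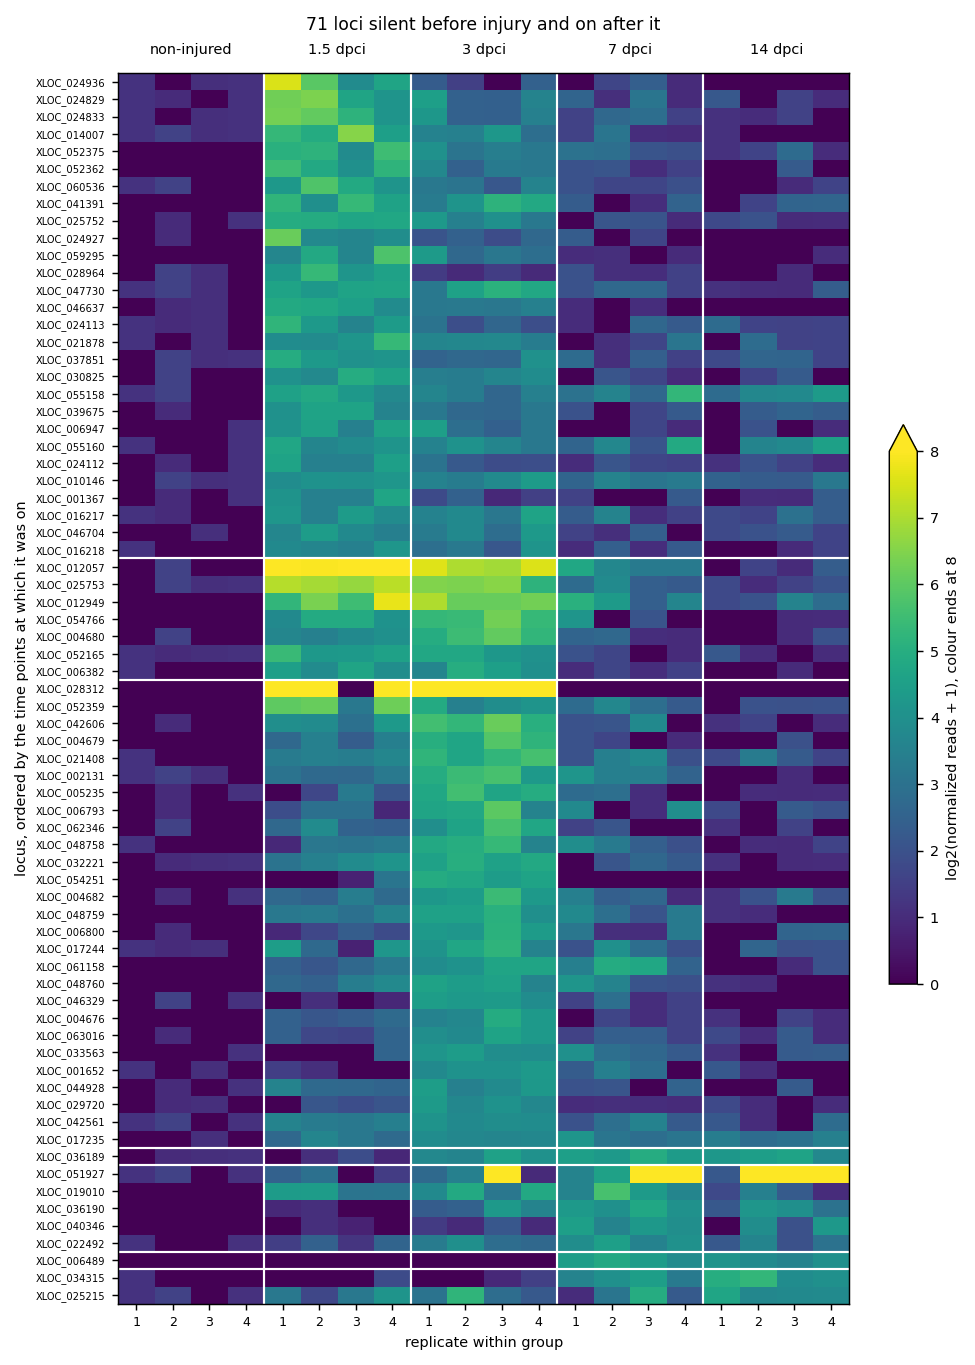
Each row is 1 of the 71 loci and each column 1 of the 20 libraries, with the colour giving log2(normalized reads + 1) up to 8. White lines divide the 5 groups of libraries and the sets of loci by the time points at which they were on. The 28 loci on at 1.5 dpci alone stand at the top and the 27 on at 3 dpci alone below the 7 on at both, and most rows are dark again at 14 dpci.

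By the thresholds of the rule, few loci were off at 7 dpci and more at 14 dpci. A locus was called off when all 4 libraries were under 2, which is the level the rule asks of the non-injured group, and between when it was neither on nor off. At 7 dpci 5 of the 71 loci were off and 59 were between. At 14 dpci 19 were off and 48 were between. Of the 63 loci that were on at 1.5 or 3 dpci, 40 had no library at 10 or over at 7 dpci and 58 had none at 14 dpci. The group mean of these 63 loci was under 2 for 18 at 7 dpci and for 39 at 14 dpci. Hence at 14 dpci most of the early loci were below the level that made them on, and 19 of 63 had all libraries back under 2.

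**Figure D2:**
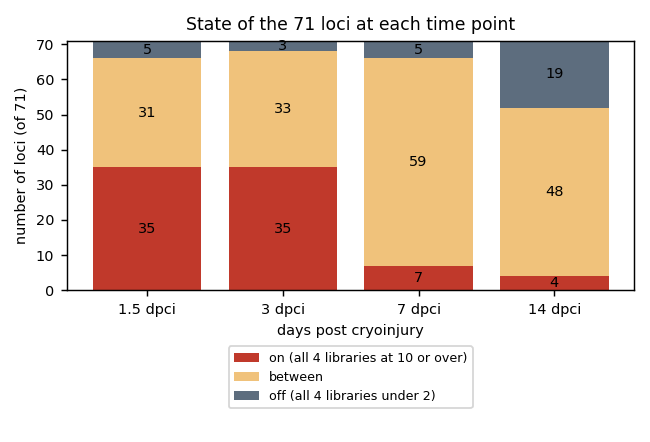
Stacked bars give the number of the 71 loci (vertical axis) that were on, between or off at each time point after cryoinjury (horizontal axis). Loci that were on number 35, 35, 7 and 4, and loci that were off number 5, 3, 5 and 19.

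Counted by library, between 36 and 46 of the 71 loci were at 10 or over in the 4 libraries of 1.5 dpci. The number was 45 to 50 at 3 dpci, 11 to 20 at 7 dpci and 4 to 11 at 14 dpci, and it was 0 in each non-injured library. The median of the 71 loci was between 0 and 0.988 in the non-injured libraries, between 10.2 and 14.3 at 1.5 dpci, between 13 and 15 at 3 dpci, between 2.88 and 4.38 at 7 dpci and between 1.01 and 2.05 at 14 dpci. In the count of loci at 10 or over, each library of 1.5 and 3 dpci lay above each library of 7 and 14 dpci. This order largely repeats the numbers of loci on, because a locus on in a group is at 10 or over in all 4 of its libraries. The rule itself sets the 0 of the non-injured libraries.

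How many loci the rule finds depends on single libraries, because all 4 libraries of a group must pass. Without 1 library the rule is looser and kept all 71 loci in each case. The number was 138 without non-injured replicate 1, 115 without replicate 2 and 107 without replicate 3 of that group. At 1.5 dpci 65 loci were on without its replicate 3, 54 without its replicate 4 and 59 without non-injured replicate 2. At 3 dpci 58 were on without its replicate 1, and 59, 57 and 55 without non-injured replicates 2, 3 and 4. The 7 loci on at 7 dpci became 39 without non-injured replicate 1, 15 without non-injured replicate 2, 15 without 7 dpci replicate 2, 11 without its replicate 3 and 15 without its replicate 4. The 4 loci on at 14 dpci became 43 without non-injured replicate 1, 8 without replicate 2, 12 without replicate 3, and 33 without 14 dpci replicate 1. The 19 loci off at 14 dpci became 31 and 29 without non-injured replicates 3 and 4, and 32 without 1.5 dpci replicate 3. Counts of late loci therefore rested most on non-injured replicate 1 and 14 dpci replicate 1. Without non-injured replicate 1, the loci on at 1.5, 3, 7 and 14 dpci were 44, 52, 39 and 43. The excess of early over late loci thus largely rested on that library too.

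Levels were low for most of the loci. The highest group mean was between 12.3 and 31.3 normalized reads for the lower 3 quartiles of the 71 loci, with a median of 22.9, and it was under 50 for 63 loci. In the injured libraries a value of 10 stands for 9 to 15 reads. Before injury 18 loci were at 0 in all 4 libraries, and a locus of the group held at most 5 reads summed over the 4 libraries (median 2). The coefficient of variation between the 4 libraries of the group with the highest mean was 36.6% in the median and ran from 8.35% to 111%. Since values are not divided by length, levels are compared between libraries and not between loci.

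Among the 7 loci on at both 1.5 and 3 dpci, XLOC_012057 had the highest values. It was at 0, 1.98, 0 and 0 in the 4 non-injured libraries and at 311, 248, 315 and 275 at 1.5 dpci. At 3 dpci it was at 193, 129, 118 and 189, at 7 dpci at 26, 12.1, 8.65 and 8.64, and at 14 dpci at 0, 2.03, 0.988 and 4.09. The group mean at 1.5 dpci was 287 ± 31.6 (SD, n = 4) and the mean at 3 dpci 157 ± 39.6 (SD, n = 4), and no library of 1.5 dpci overlapped those of 3 dpci. XLOC_025753 followed the same course, with 137, 119, 105 and 143 at 1.5 dpci and 89.4, 84.2, 95.4 and 34.8 at 3 dpci, after 0, 1.98, 1.11 and 1.2 before injury. It was at 6.01, 13.1, 4.32 and 3.84 at 7 dpci and at 2.38, 1.01, 1.98 and 3.07 at 14 dpci, so that its level was close to the non-injured one at the end. XLOC_012949 was at 0 in all 4 non-injured libraries and at 37.4, 82.8, 44.4 and 213 at 1.5 dpci, a wide spread in which replicate 4 was highest. Its values were 132, 69.4, 69.8 and 77.9 at 3 dpci, 33.1, 19.7, 4.32 and 11.5 at 7 dpci and 2.38, 3.04, 10.9 and 6.14 at 14 dpci, where 1 library was still at 10 or over.

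**Figure D3:**
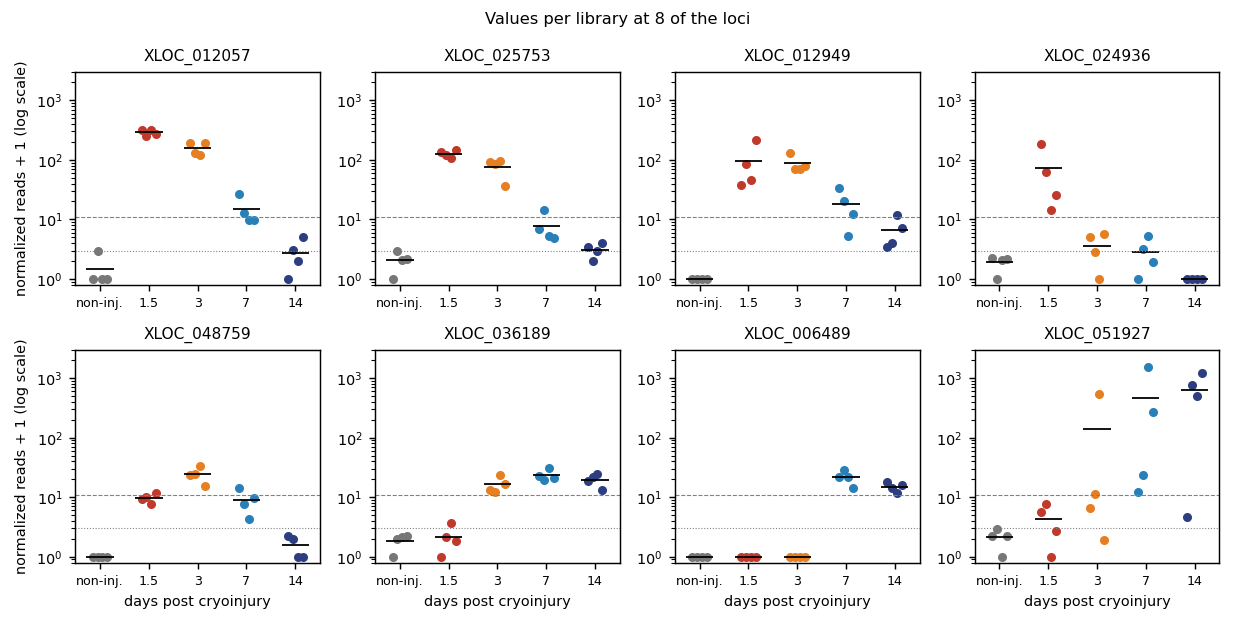
Points are the single libraries of 8 loci on a log axis of normalized reads + 1, by group, and black bars are the group means. The dashed and dotted lines mark values of 10 and 2. XLOC_012057 and XLOC_025753 stand above 100 at 1.5 dpci, XLOC_006489 lies at 0 until 3 dpci, and XLOC_051927 spreads over more than 2 orders of magnitude at 7 dpci.

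The other loci on at both early time points were XLOC_004680, XLOC_006382, XLOC_052165 and XLOC_054766. XLOC_004680 was higher at 3 dpci (30.1, 43.5, 66.3 and 37.6) than at 1.5 dpci (11.9, 10.2, 13 and 15.1). XLOC_006382 had 21.9, 13.6, 24.6 and 14.3 normalized reads at 1.5 dpci, had 11.4, 30.5, 22.1 and 14.7 at 3 dpci, and was at 2.19 or under in the 4 libraries of 7 dpci. Over the 7 loci the ratio of the group mean at 3 dpci to that at 1.5 dpci had a median of 0.924 and ran from 0.547 to 3.54, and 4 of the 7 were higher at 1.5 dpci.

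The 28 loci on at 1.5 dpci alone were led by XLOC_024936 and XLOC_024829. XLOC_024936 was at 184, 61.2, 13.6 and 24.3 at 1.5 dpci, with replicate 1 the highest. It was at 4.06, 1.85, 0 and 4.59 at 3 dpci, at 0, 2.19, 4.32 and 0.961 at 7 dpci and at 0 in all 4 libraries of 14 dpci, against 1.26, 0, 1.11 and 1.2 before injury. XLOC_024829 was at 75.8, 83.9, 24.6 and 16.8 at 1.5 dpci and at 21.9, 4.63, 4.42 and 11 at 3 dpci, where replicates 1 and 4 were at 10 or over. At 7 dpci its values were 5.01, 1.1, 7.57 and 0.961, and at 14 dpci they were 3.58, 0, 1.98 and 1.02. Both loci were highest in replicates 1 and 2 of 1.5 dpci. XLOC_024833 was also highest in these 2 libraries (79.5, 66.9, 34.8 and 16.8 at 1.5 dpci). Across the 28 loci the median group mean was 22.1 at 1.5 dpci, 9.55 at 3 dpci, 2.52 at 7 dpci and 1.73 at 14 dpci.

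On at 1.5 dpci alone did not mean silent at 3 dpci. Of these 28 loci, 21 had at least 1 library at 10 or over at 3 dpci, 8 had 3 of 4, and 1 was off. The 1 locus that was off, XLOC_028964, went from 18.3, 39.7, 17.1 and 22.6 at 1.5 dpci to 1.63, 0.925, 1.77 and 0.917 at 3 dpci and was named after its values were seen, like the other loci outside the naming rule below. The ratio of the mean at 3 dpci to that at 1.5 dpci had a median of 0.380, and a ratio under 1 largely follows from sorting the loci by these values. It was highest in XLOC_047730, at 1.01, the 1 locus of the 28 with a higher mean at 3 dpci.

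The 27 loci on at 3 dpci alone mostly had reads at 1.5 dpci already. Over the 4 time points their median group mean was 6.71, then 22.5, 5.09 and 1.05. At least 1 library was at 10 or over at 1.5 dpci in 13 of them and 3 of 4 libraries in 4, whereas 2 were off. The mean was higher at 3 dpci than at 1.5 dpci in 26 of 27, with a median ratio of 3.96, a direction that the sorting of these loci by the same values nearly fixes. XLOC_042606, with the highest mean at 3 dpci after XLOC_028312, was at 14.6, 13.6, 6.82 and 18.4 at 1.5 dpci and at 46.3, 37.9, 71.6 and 32.1 at 3 dpci. It was at 3.01, 3.29, 13 and 0 at 7 dpci and at 1.19, 2.03, 0 and 1.02 at 14 dpci, after 1 read in 1 non-injured library. All 4 libraries of 3 dpci lay above those of the other groups, which the rule itself fixes for the non-injured group. The exception in the direction was XLOC_052359, at 63.9, 70.3, 8.19 and 73.8 at 1.5 dpci and 28.4, 10.2, 14.1 and 16.5 at 3 dpci. Its 1.5 dpci replicate 3 was under 10 and kept it out of the loci on at 1.5 dpci.

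The 2 loci on at 3 dpci that were off at 1.5 dpci were XLOC_001652 and XLOC_046329. XLOC_046329 was at 0, 1.13, 0 and 0.839 at 1.5 dpci, at 21.1, 18.5, 19.4 and 13.8 at 3 dpci, at 2.0, 6.57, 1.08 and 1.92 at 7 dpci and at 0 in all libraries of 14 dpci. XLOC_054251 had reads at 3 dpci and almost nowhere else. It was at 0 in the non-injured libraries, at 0, 0, 0.682 and 7.55 at 1.5 dpci, at 29.3, 26.8, 20.3 and 23.8 at 3 dpci, and at 0 in all 8 libraries of 7 and 14 dpci. The locus with the preceding number, XLOC_054250, was at 6.65 in non-injured replicate 3, so it was not silent by the rule. It was at 218, 178, 80.4 and 202 at 3 dpci and at 0, 0, 0.682 and 34.4 at 1.5 dpci, and was also high in the libraries of 3 dpci. The next number, XLOC_054252, was not, with 0.925 or under at 3 dpci and 43.1 in 7 dpci replicate 1 alone. XLOC_046329, XLOC_054250 and XLOC_054251 had values at 3 dpci that no library of 1.5, 7 or 14 dpci reached.

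XLOC_028312 stood apart from the other 70 loci. It is listed at 0 in 13 libraries and at 436980 to 585424 normalized reads in 7, with nothing in between. The 1.5 dpci libraries are listed at 485107, 480004, 0 and 518751 and the 3 dpci libraries at 436980, 585424, 580924 and 556406. All non-injured, 7 dpci and 14 dpci libraries are listed at 0. Where present it held 423288 to 657445 reads, between 2.10% and 2.41% of the library, and it was the largest value in 5 libraries. A listed 0 beside values of this size can be a failed estimate as well as an absence of reads. Only 1 other locus of the table, XLOC_052752, was at 0 in some libraries (5) and over 10000 in others, with 8300 to 44990 where present. By the rule XLOC_028312 was on at 3 dpci alone, since 1.5 dpci replicate 3 is listed at 0. No fold change is given for this locus. It is counted in all numbers above and left out of the sums below.

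Without XLOC_028312, the values of the remaining 70 loci summed to between 22.2 and 54.3 in the non-injured libraries. The sum was between 1306 and 1777 at 1.5 dpci and between 1306 and 2126 at 3 dpci. At 7 dpci it was between 474 and 1962 and at 14 dpci between 184 and 1478. In 5 of these 8 libraries XLOC_051927 alone was at 266 to 1543, and in 7 dpci replicates 1 and 2 and 14 dpci replicate 1, where the sums were lowest, it was at 23 or under.

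Of the 9 loci on at 7 or 14 dpci, XLOC_051927 had the highest values and the widest spread. It was at 1.26, 1.98, 0 and 1.2 before injury and at 4.57, 6.8, 0 and 1.68 at 1.5 dpci. At 3 dpci it was at 5.69, 10.2, 547 and 0.917, with replicate 3 alone high. At 7 dpci it was at 11, 23, 1543 and 266, and at 14 dpci at 3.58, 754, 505 and 1229, with replicate 1 alone low. It was therefore on at 7 dpci alone by the rule, although 3 libraries of 14 dpci were at 505 or over. The loci with the numbers before and after it were high in the same libraries, though not in the same order. XLOC_051926 was at 0.813, 3.7, 58.3 and 0.917 at 3 dpci, at 8.01, 11, 272 and 621 at 7 dpci and at 0, 406, 533 and 982 at 14 dpci. XLOC_051928 was at 1.63, 0, 57.4 and 0, at 3.01, 7.67, 209 and 21.1 and at 0, 48.6, 75.1 and 353 at these time points. The 3 loci share the libraries in which they were high, which are not those of one time point.

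XLOC_006489 was at 0 in all 12 libraries of the non-injured, 1.5 dpci and 3 dpci groups. It was at 21, 27.4, 20.5 and 13.4 at 7 dpci and at 16.7, 13.2, 10.9 and 15.3 at 14 dpci, so that it was the only locus of the 71 with no read before 7 dpci and all 8 later libraries at 10 or over. The locus of the next number, XLOC_006490, was also at 0 in those 12 libraries and at 10.02, 12.1, 15.1 and 2.88 at 7 dpci, and it was at 2.38, 4.05, 2.97 and 6.14 at 14 dpci. The locus of the number before, XLOC_006488, ran the other way, at 0, 15.8, 2.22 and 16.8 before injury, at 3.65, 5.67, 8.19 and 1.68 at 1.5 dpci and at 0 in all 12 later libraries. Because both time points lie on 1 side of the split of the libraries and the earlier ones on the other, time and the split cannot be told apart here. Non-injured replicates 1 and 2, on the same side as 7 and 14 dpci, were at 0, but the rule itself asked for low values there.

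XLOC_036189 was the longest on. It was at 0, 0.988, 1.11 and 1.2 before injury and at 0, 1.13, 2.73 and 0.839 at 1.5 dpci. It then was at 12.2, 11.1, 23 and 15.6 at 3 dpci, at 22, 18.6, 30.3 and 20.2 at 7 dpci and at 17.9, 21.3, 23.7 and 12.3 at 14 dpci, where its mean was 18.8 ± 4.96 (SD, n = 4). Its neighbour by number, XLOC_036190, was at 0 in all non-injured libraries, at 0.913, 1.13, 0 and 0 at 1.5 dpci, at 4.06, 4.63, 18.6 and 11 at 3 dpci, at 19, 15.3, 25.9 and 15.4 at 7 dpci and at 3.58, 17.2, 14.8 and 7.16 at 14 dpci. In both loci all 4 libraries of 14 dpci were above the 4 non-injured ones. The rule fixes this for XLOC_036189, which was on at 14 dpci. It also held XLOC_036190 under 2 before injury, so nothing is read from this order. XLOC_036191, the number after them, was at 4.09 or under in all 20 libraries. XLOC_036188, the number before them, was at 10.1, 8.89, 1.11 and 1.2 before injury, so it was not silent there. It was at 1.83, 2.27, 5.46 and 4.19 at 1.5 dpci and at 25.2, 50.9, 97.2 and 66 at 3 dpci. At 7 dpci it was at 57.1, 70.1, 129 and 70.1, and at 14 dpci at 40.5, 97.3, 113 and 59.3.

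The remaining late loci were on at 7 or at 14 dpci. XLOC_019010 was at 11, 50.4, 19.5 and 11.5 at 7 dpci, after 20.1, 20.4, 7.51 and 7.55 at 1.5 dpci and 13, 27.8, 7.95 and 27.5 at 3 dpci, and at 2.38, 10.1, 3.95 and 1.02 at 14 dpci. It had values of 10 or over in at least 1 library of each injured group. XLOC_040346 was at 22, 11, 18.4 and 14.4 at 7 dpci and at 0, 14.2, 2.97 and 18.4 at 14 dpci, with 3.53 or under at 3 dpci. XLOC_022492 was at 14, 21.9, 10.8 and 15.4 at 7 dpci and at 3.58, 11.1, 2.97 and 7.16 at 14 dpci. Of the 2 loci on at 14 dpci alone, XLOC_034315 was at 31, 38.5, 13.8 and 15.3 there, at 11, 15.3, 21.6 and 8.64 at 7 dpci, and at 2.52 or under in all 8 libraries of 1.5 and 3 dpci. Its neighbours by number were also high at 14 dpci, XLOC_034314 at 59.6, 91.2, 41.5 and 61.4 and XLOC_034316 at 78.7, 134, 79.1 and 72.6. Both neighbours were at 36.6 in non-injured replicate 1, where XLOC_034315 was at 1.26. XLOC_025215 was at 25, 12.2, 12.8 and 13.3 at 14 dpci. Earlier it lay between 2.27 and 16.8 at 1.5 dpci, between 3.67 and 37 at 3 dpci, and between 1.0 and 30.3 at 7 dpci. Its level at 14 dpci thus overlapped the levels of each earlier time point.

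Of the 19 loci off again at 14 dpci, 7 had been on at 1.5 dpci alone, 10 at 3 dpci alone and 2 at both. Already at 7 dpci 4 of these were off, and 15 were between. The 4 were XLOC_028312, XLOC_046637, XLOC_054251 and XLOC_059295. XLOC_046637 was at 28.3, 26.1, 21.8 and 13.4 at 1.5 dpci, at 8.13, 8.33, 7.95 and 10.1 at 3 dpci, at 1.0, 0, 1.08 and 0 at 7 dpci and at 0 in all libraries of 14 dpci. The fifth locus off at 7 dpci, XLOC_029720, was at 1.0, 1.1, 1.08 and 0.961 there and at 2.38, 1.01, 0 and 1.02 at 14 dpci, where 1 library with 2 reads kept it between. By the naming rule the highest of the 19 were XLOC_028312, XLOC_024936 and XLOC_024833, the last at 1.19, 1.01, 1.98 and 0 at 14 dpci. Off at this threshold allows 1 read in replicates 1, 2 and 4 of 14 dpci and 2 reads in replicate 3, and says nothing of levels below that.

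At the other end, 5 of the 63 early loci had a library at 10 or over at 14 dpci. XLOC_036189 was on in all 4. XLOC_055158 was at 7.01, 11, 5.41 and 38.4 at 7 dpci and at 5.96, 12.2, 12.8 and 19.4 at 14 dpci, after 22.8, 27.2, 18.4 and 12.6 at 1.5 dpci. XLOC_055160 was at 5.01, 12.1, 3.24 and 27.9 and 0, 11.1, 12.8 and 22.5 at the later time points, and both loci were highest in replicate 4 of each. XLOC_012949 and XLOC_017235 had 1 such library each. The other 58 early loci had none.

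The change from 7 to 14 dpci was tested in the 63 loci on at 1.5 or 3 dpci, since their values at 7 and 14 dpci had no part in choosing them. With limma on all 20 libraries, 5 were lower at 14 dpci and 0 were higher (adjusted p below 0.05 over all loci). Over all loci 0.299% were lower and 0.105% higher. At an unadjusted p below 0.05, 19 of the 63 were lower and 0 higher, against 6.43% lower and 4.78% higher of all loci. The difference was below 0 in 50 loci and above 0 in 11, with a median of -0.85 on the log2(value + 1) scale against -0.01 over all loci. At low values, differences on this scale are smaller than the change in reads.

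The 5 loci that fell were XLOC_002131, XLOC_061158, XLOC_048759, XLOC_012057 and XLOC_048760. Of these, XLOC_048759 and XLOC_048760 have consecutive numbers, and whether they are pieces of 1 transcript was not tested. XLOC_002131 was at 17, 9.86, 9.73 and 4.8 at 7 dpci and at 0, 0, 0.988 and 0 at 14 dpci, after 30.1, 42.6, 50.4 and 19.3 at 3 dpci. It fell by 3.15 on the log2 scale (SE 0.45, limma adjusted p = 0.00369). XLOC_061158 was at 10.02, 29.6, 25.9 and 4.8 at 7 dpci and at 0, 0, 0.988 and 3.07 at 14 dpci, and fell by 3.17 (SE 0.53, limma adjusted p = 0.00906). XLOC_048759 was at 13, 6.57, 3.24 and 8.64 and at 1.19, 1.01, 0 and 0, and fell by 2.49 (SE 0.42, limma adjusted p = 0.00945). In none of the 5 did a library of 14 dpci reach the lowest library of 7 dpci. This adds nothing to the p-values, which come from the same values, and it also held in loci that were not called. XLOC_012057, with its values given above, fell by 2.52 (adjusted p = 0.0156 with limma), and XLOC_048760 fell by 2.41 (adjusted p = 0.0349 with limma). XLOC_048760 missed the threshold without 7 dpci replicate 1 or 2 and without 14 dpci replicate 2, 3 or 4 (adjusted p from 0.0666 to 0.12, and from 0.0204 to 0.212 over all its alternatives). Over all alternatives run, it missed the threshold in 12 of 21. XLOC_012057 missed it in 5 of 22, XLOC_048759 in 4 of 22, and XLOC_002131 and XLOC_061158 in 2 of 22 each. The number of calls was 0 in a model of only the 8 libraries compared. There 17 of the 61 loci tested were lower at an unadjusted limma p below 0.05, against 5.8% of all loci in that model. The model of all 20 libraries also draws its spread from groups that the rule used, among them non-injured values held under 2. On recovered reads the number was 2 with edgeR and 3 with DESeq2, which gave an adjusted p for only 39 of the 63 loci.

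In the 35 loci on at 1.5 dpci, values at 3 and 7 dpci were free of the rule. From 3 to 7 dpci 19 of 35 fell and 0 rose (limma, adjusted p below 0.05), against 9.31% lower and 8.44% higher of all loci. The median difference was -1.66 on the log2(value + 1) scale against -0.02 over all loci, and 33 of 35 were below 0. XLOC_025753 fell by 3.34 (SE 0.41, limma adjusted p = 3.03e-05), XLOC_012057 by 3.52 (SE 0.46, limma adjusted p = 4.42e-05) and XLOC_006382 by 2.96 (SE 0.43, limma adjusted p = 0.000139). All 4 libraries of 7 dpci lay below those of 3 dpci in these 3 loci, which adds nothing to p-values from the same values. The contrast sets 1 side of the split of the libraries against the other, and with a term for that split 3 loci were called (XLOC_004680, XLOC_006382 and XLOC_012057). Only the non-injured group has libraries on both sides, so the term rests on its values, which the rule held under 2. It cannot measure the split in these loci, and the part of the split in these differences was not tested. The number lower was 16 to 18 when each of the 8 libraries was left out, and 18 in a model of only these 8. It was 14 with a pseudocount of 0.1 and 20 with a pseudocount of 5. On recovered reads it was 15 with limma-voom, 14 with edgeR and 15 with DESeq2.

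**Figure D4:**
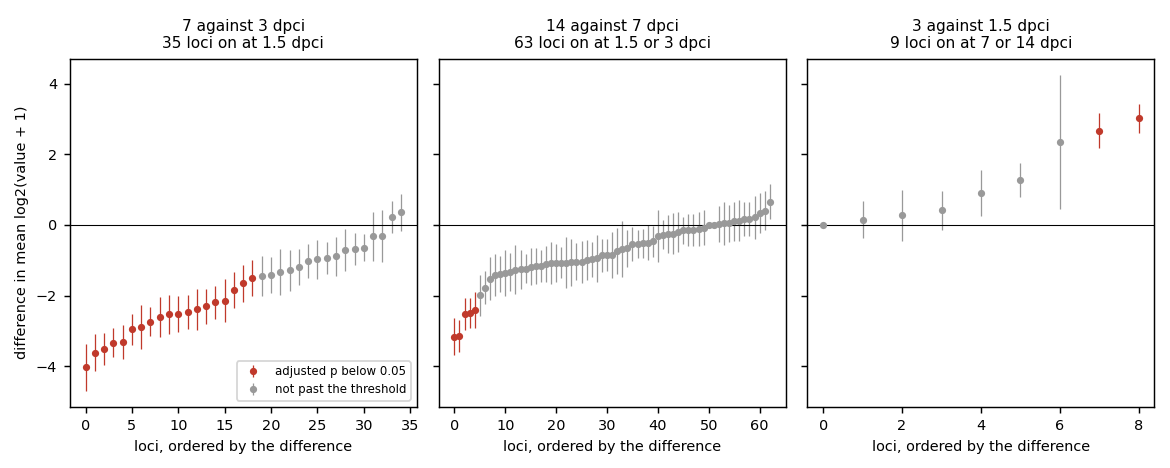
Points are the differences in mean log2(value + 1) of single loci (vertical axis) in the contrasts that the choice of loci left free, ordered by size (horizontal axis), with bars of 1 standard error. Red points passed an adjusted p of 0.05 with limma, 19 of 35 loci from 3 to 7 dpci, 5 of 63 from 7 to 14 dpci and 2 of 9 from 1.5 to 3 dpci.

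For the 9 loci on at 7 or 14 dpci, the earlier time points were compared. From 1.5 to 3 dpci 2 of 9 rose and 0 fell (limma, adjusted p below 0.05), while 4.86% of all loci were higher and 4.57% lower. At an unadjusted p below 0.05, 3 were higher and 0 lower, against 11.3% and 11.9% of all loci. The median difference was 0.90 on the log2(value + 1) scale against -0.02 over all loci. The 2 loci were the neighbours XLOC_036189, with a difference of 3.02 (SE 0.42, limma adjusted p = 9.68e-05), and XLOC_036190, with 2.67 (SE 0.50, limma adjusted p = 0.00171). Both were called with each of the 8 libraries left out in turn. XLOC_006489 had no reads in either group, and XLOC_051927 had a difference of 2.35 with an SE of 1.9.

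To see how many loci change between silent and on for any other pair of groups, the same thresholds were applied to each ordered pair. Between the time points on opposite sides of the split, from 151 to 228 loci were silent in one group and on in the other. Between groups on the same side, 17 loci were silent at 1.5 dpci and on at 3 dpci, and 54 the other way round. The counts were 0 from 7 to 14 dpci and 2 from 14 to 7 dpci. From the non-injured group, which has libraries on both sides, 35, 35, 7 and 4 loci were silent and then on. In the opposite direction 3, 8, 15 and 16 loci were on in all 4 non-injured libraries and silent at 1.5, 3, 7 and 14 dpci. Together 31 loci, 0.122% of the 25327 on before injury, were silent at 1 or more time points. These opposite counts were not repeated without single libraries.

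**Figure D5:**
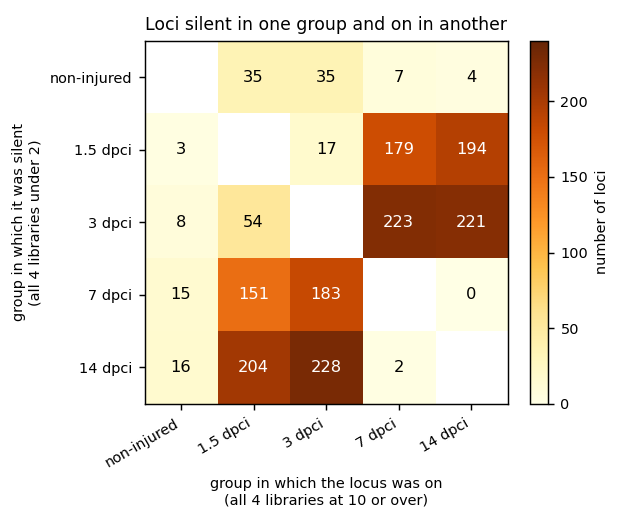
Each cell gives the number of loci silent in the group of its row (all 4 libraries under 2) and on in the group of its column (all 4 libraries at 10 or over). The top row holds the loci silent before injury, 35, 35, 7 and 4. The cells that join 1.5 or 3 dpci with 7 or 14 dpci hold 151 to 228.

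With non-injured replicates 1 and 2 alone as the silent group, 259 loci were silent and then on, 88 at 1.5 dpci, 176 at 3 dpci, 15 at 7 dpci and 16 at 14 dpci. With replicates 3 and 4 alone the number was 544, of which 109 were on at 1.5 dpci, 110 at 3 dpci, 296 at 7 dpci and 294 at 14 dpci. The numbers were higher at the time points on the side of the split opposite to the libraries used. This comparison was added after seeing the data, and the 71 loci are in both sets.

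Some of the loci lay close together by number. Of the 71, 27 had another of them within 10 numbers, and 13 lay in 6 runs of consecutive numbers. The longest run was XLOC_048758, XLOC_048759 and XLOC_048760, all on at 3 dpci alone. Their values at 3 dpci were 27.6, 30.5, 39.8 and 11, then 22.8, 23.1, 32.7 and 14.7, and 23.6, 20.4, 23 and 11, with replicate 4 lowest in each. XLOC_048757 and XLOC_048761 on either side were silent before injury too, at 13.8, 8.33, 6.19 and 6.42 and 10.6, 8.33, 13.3 and 4.59 at 3 dpci, and did not reach 10 in all libraries. In 3 of the 6 runs the members were on at the same time points. The others were XLOC_004679 with XLOC_004680, XLOC_025752 with XLOC_025753, and XLOC_036189 with XLOC_036190, each with 1 time point at least in common.

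Around XLOC_004680 the numbers from XLOC_004675 to XLOC_004683 hold 9 loci, of which 4 are members. XLOC_004681, which is no member because of 4.94 normalized reads in non-injured replicate 2, had the highest values there, at 45.7, 31.8, 35.5 and 40.2 at 1.5 dpci and at 103, 96.2, 237 and 132 at 3 dpci. All 9 loci had their highest value in 3 dpci replicate 3. In the same way XLOC_024829 lies beside XLOC_024830, at 182, 154, 69.6 and 42.8 at 1.5 dpci, and XLOC_024927 beside XLOC_024926, at 119, 29.5, 14.3 and 15.9. In both pairs replicate 1 or 2 of 1.5 dpci held the highest value. Before injury XLOC_024830 was at 10.1, 2.96, 4.43 and 7.18 and XLOC_024926 at 1.26, 0.988, 2.22 and 1.2, so neither was silent by the rule. Whether the loci of a pair are pieces of 1 transcript was not tested, since their positions are not paired with the values.

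Over all loci whose number is next to a member on at 1.5 dpci and that are no members themselves, 39 of 58 tested were higher at 1.5 dpci than before injury (limma, adjusted p below 0.05), against the 12.8% of all loci. For 3 dpci the number was 37 of 59, against 12.9%. For 7 dpci it was 6 of 12 and for 14 dpci 5 of 7, against 6.43% and 5.88%. The median difference of these neighbours was 2.22 on the log2(value + 1) scale at 1.5 dpci and 2.34 at 3 dpci, with medians of 0.09 and 0.02 over all loci. The neighbours were found through members that the rule chose as low before injury and high at the same time point. Where a neighbour and a member are pieces of 1 transcript, the rule would largely set the neighbour's direction too. The counts of neighbours are therefore a description and no independent result. The 71 are assembled loci, and how many genes they stand for was not tested.

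At the edge of the rule, XLOC_046704 was just inside the upper threshold with a lowest value of 10.1 at 1.5 dpci, and XLOC_044928 with 10.2 at 3 dpci. XLOC_003297 was just outside with 9.86 at 7 dpci and XLOC_006794 with 9.75 at 3 dpci, both at 0 before injury. XLOC_002131 and XLOC_004680 were just inside the lower threshold with 1.98 normalized reads (2 reads) in non-injured replicate 2. XLOC_001024 and XLOC_016591 were just outside it with 2.22. A further 229 silent loci had a best lowest value between 5 and 10, and 285 loci on in an injured group had a highest non-injured value between 2 and 5, so that the edge is densely filled on both sides.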

How the data were processed

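Stranded total RNA libraries of ventricular apexes were prepared, sequenced and analyzed by a service provider. Alignment was to GRCz10 (Ensembl 90), and the Tuxedo suite was run (Cufflinks, Cuffmerge and Cuffdiff; versions are not given in the sources used here). The deposited values are a signal made by the authors, the reads counted per locus divided by a size factor per library, with no division by locus length. They are therefore not FPKM, the unit the methods name. In 19 libraries the values are whole multiples of the value of 1 read (100% of the values of up to 20 reads within 0.1 read). The reads were recovered from it. The remaining library, 7 dpci replicate 1, was left out of this step by choice, and no such share is given for it. Its value of 1 read was 1.002. Each column was matched to its sample by name.

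The gene names and positions in the table stand in another order than its rows and were not used, so loci are given by number and no sequence is shown. The loci and tests were chosen with earlier results of these data known. Loci were named by a fixed rule: the 8 with the highest group mean, the 2 highest among those on at a single time point alone, the 3 highest off again at 14 dpci, the 3 with the smallest adjusted p of each contrast and direction, those at the edges of the rule, and the longest run of numbers. Others were named after their values were seen.

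Contrasts were tested in R 4.3.3 with limma 3.58.1 (lmFit, then eBayes with its trend and robust settings, statmod 1.5.0) on log2(value + 1), for the 62594 loci that were not 0 throughout. One model held the 20 libraries in 5 groups. The two-sided p-values were adjusted over these loci (Benjamini-Hochberg), and 0.05 was the threshold. For the chosen loci, results are read only from contrasts whose group means the choice left free. The spread behind their p-values came from all 20 libraries, including non-injured values that the rule held under 2. Only the model of the 8 libraries compared leaves those values out. Contrasts against the non-injured group were fitted too, for the shares of all loci and for the neighbours by number. On simulated data at 62594 loci, of which 200 were changed, the model of all libraries recovered 75% of 4-fold and 100% of 8-fold changes from 7 to 14 dpci, 91% and 100% from 1.5 to 3 dpci, and 92% and 100% from 3 to 7 dpci. Among the unchanged loci 18, 6 and 5 were called. The changed loci were drawn from those with a mean of at least 20 normalized reads, with the same set spread for every locus. Most of the loci tested here started from lower means, so these rates were not measured at their levels. The replicate numbers were not treated as pairs in this model. Same-numbered libraries of 2 time points had correlations of their deviations between -0.0989 and 0.169. The same number gave the highest correlation only for replicates 1 and 4 from 7 to 14 dpci. Such values cannot show whether libraries shared a surgery or a day.

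Alternatives were other thresholds, TMM factors, quantile normalization, scaling to total reads, pseudocounts of 0.1 and 5, a filter for values of 10 or more in 4 libraries, a fold change of at least 2, the replicate number as a block, a model of the 8 libraries compared, a term for the split along the first principal component, limma-voom, edgeR 4.0.16 and DESeq2 1.42.0 on recovered reads of 19 libraries, and leaving out each library. Added after seeing the data were the block in the model of 8 libraries, limma on 19 libraries, and the non-injured libraries of 1 side alone.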

Additional observations from a re-analysis of the deposited data

Results flagged for a closer look

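In 6 of the 65 groups of 4 libraries searched, 1 library stood apart from the other 3, by Dixon's test at the 95% level on the gap as a share of the range. Chance gives about 1 in 20, or 3.25 of 65. XLOC_028312 had a share of 0.994 at 1.5 dpci, where replicate 3 is listed at 0 and the others at 480004 to 518751. XLOC_051927 had a share of 0.841 at 14 dpci through replicate 1, the only library of that group in which it was under 10. XLOC_025753 had 0.875 at 3 dpci through the low value of replicate 4. XLOC_052359 had 0.933 at 1.5 dpci through the low value of replicate 3, and XLOC_025215 had 0.878 at 14 dpci through the high value of replicate 1. The number of the 71 loci at 0 had a share of 1 at 3 dpci, where the 4 libraries held 2, 2, 2 and 1 such loci, a difference of a single locus.

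Between time points, 5 loci passed the test from 7 to 14 dpci, 2 from 1.5 to 3 dpci and 19 from 3 to 7 dpci, the last across the split of the libraries.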

How the results depend on the processing

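The number of loci depends on the thresholds of the rule more than on the scaling. With all non-injured values under 1, 24 loci were found, of which 8, 14, 4 and 1 were on at 1.5, 3, 7 and 14 dpci and 3 were off at 14 dpci (there all 4 under 1). With all at 0 the numbers were 18 loci, then 6, 10, 4 and 1, and 7 off (under 2). With all under 5 they were 356, then 163, 215, 41 and 30, and 135 off (under 5). An upper threshold of 5 gave 300 loci, then 139, 159, 49 and 26, and 86 off. An upper threshold of 20 gave 14 loci, then 5, 12, 0 and 0, and 6 off. With non-injured replicates 1 and 2 alone there were 259 loci, then 88, 176, 15 and 16, and 90 off. With replicates 3 and 4 alone there were 544, then 109, 110, 296 and 294. TMM factors gave 68 loci, quantile normalization 65 and scaling to total reads 76, of which 67, 63 and 54 were among the 71. The loci on at 1.5, 3, 7 and 14 dpci were 30, 35, 8 and 4 with TMM factors. They were 27, 33, 8 and 5 with quantile normalization and 33, 44, 6 and 3 with scaling to total reads. When each library was left out in turn, the number of loci ranged from 72 to 138. The loci on ranged from 35 to 65 at 1.5 dpci, from 35 to 59 at 3 dpci, from 7 to 39 at 7 dpci, and at 14 dpci from 4 to 43, and those off at 14 dpci from 19 to 32. Each of these settings with a looser rule kept the 71 loci by construction.

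For 14 against 7 dpci, the 5 loci lower became 0 in the model of the 8 libraries compared. They became 0 with the replicate block in that model too (14 of 61 at an unadjusted limma p below 0.05, against 5.81% of all loci). The number was 3 with limma-voom, 2 with edgeR and 3 with DESeq2. DESeq2 gave an adjusted p for only 39 of the 63 loci. The cause of these differences was not tested. The replicate block in the model of all libraries left 5 loci lower, and from 4 to 5 were lower when each library was left out. For 7 against 3 dpci, the 19 loci lower became 3 with the term for the split of the libraries and 18 with the replicate block. They became 14 with a pseudocount of 0.1, 20 with a pseudocount of 5, and 16 to 18 when each library was left out. On recovered reads the number was 15 with limma-voom, 14 with edgeR and 15 with DESeq2. The term for the split rests on the non-injured values, which the rule held under 2, and cannot measure the split in these loci. For 3 against 1.5 dpci, 2 loci were higher when each library was left out, also with the replicate block, and 3 with DESeq2, which added XLOC_051927. In the 14 loci whose differences were recomputed singly, none changed sign under the 21 or 22 alternatives run for each. In a library depth of 19349169 to 32939803 reads, values under about 3 reads are taken as not told apart from 0. This floor was set and not measured. The step from off to between turns on 1 or 2 reads, which lie below it.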
